A study of Mus musculus with 4 samples.

Results

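Transcripts of 10 genes of the bone morphogenetic protein (BMP) pathway were followed in mouse osteoblasts, cells that lay down bone, in culture with insulin. The genes were Id1, Id2, Id3 and Id4, the inhibitors Bambi, Smad6 and Smad7, the ligands Bmp2 and Bmp4, and the secreted antagonist Grem1. Every Affymetrix probe set annotated to 1 of these symbols alone was taken, which gave 15 probe sets of the 45101 on the array and 10 genes of 18193 named there. A control array was labelled 0 h, and cells given 10 nM insulin were measured at 6, 12 and 24 h. Each of these groups holds 1 array, so 4 arrays were compared without replicates, and no p-value, standard deviation or standard error of a difference can be given. All 4 groups share 1 genotype, given as lacking the IGF-1 receptor in the growth protocol but as IGF-1 null in the genotype field. At 0, 6, 12 and 24 h, Igf1 had intensities of 1641, 5532, 5983 and 6024, and Igf1r 388, 259, 265 and 319. Which label holds was not tested. The cells were confluent and serum-starved before insulin. The sources used here do not say whether they were primary cells or a line. All arrays after 0 h are from insulin-treated cells, so insulin and hours in culture cannot be told apart.

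BMPs are secreted dimers of the TGF-beta superfamily that induce bone formation. They bind type I and type II serine/threonine kinase receptors, which phosphorylate Smad1, Smad5 and Smad9. These join Smad4, enter the nucleus and activate genes, among which the Id genes are direct targets in many cell types. Id proteins have a helix-loop-helix domain without a DNA-binding region and hold E proteins and related factors off DNA. The pathway is restrained at several levels. Gremlin and similar proteins trap the ligand outside the cell, BAMBI is a membrane pseudoreceptor without a kinase domain, and Smad6 and Smad7 block the receptor-regulated Smads inside the cell. Smad6, Smad7 and Bambi are themselves induced by BMP or TGF-beta in many cells.

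The 0 h array stood apart from the insulin arrays in ways that bear on each difference from 0 h given below. Of 11661 genes above a brightness filter, 10.6%, 11.7% and 11.1% were at least 2-fold higher at 6, 12 and 24 h than at 0 h, and 4.62%, 5.31% and 4.82% were at least 2-fold lower. The filter was the median intensity of the probe sets, 66.2. Eif2s3y, a Y-linked gene, had intensities of 12.2, 295, 305 and 326 at 0, 6, 12 and 24 h. The X-linked transcript Xist read 109, 1636, 1278 and 1463 in the same order. Insulin, hours in culture and any other difference between the cells of the 0 h array and those of the rest cannot be told apart, and whether all arrays come from the same cells was not tested. Summed over each list, the intensities of 9 macrophage markers were 1020.3, 5582, 7006 and 7899, those of 8 chondrocyte markers 1066, 6683, 10168 and 11466, and those of 6 smooth muscle and myofibroblast markers 6018, 43774, 46222 and 43562. Of the 7, 7 and 5 genes of these lists that were above the filter, 6, 5 and 5 were at least 2-fold higher on all 3 insulin arrays. At least 2-fold lower on all 3 were 1, 0 and 0, the 1 being the macrophage marker Cd14 (370, 155, 153 and 162). The 6 adipocyte markers, all above the filter, summed to 10629.8, 4255, 6681 and 8565, with 2 of them higher and 1 lower by 2-fold on all insulin arrays. That sum follows Lpl (9525, 1492, 2394 and 3035), whereas Adipoq (23.4, 511, 885 and 1141) and Fabp4 (664, 1879, 2883 and 3834) were higher. The 7 skeletal muscle markers summed to 435, 1973, 2060.2 and 1896, with 2 above the filter, of which 1 was higher and 0 lower. That sum follows Acta1 (130.2, 1712, 1802 and 1626), while Des had 111, 92.0, 90.9 and 89.3 and Myod1, Myog and Ckm were below the filter. The 7 endothelial markers summed to 245, 278, 249 and 257, with 1 above the filter, which was neither 2-fold higher nor lower on all insulin arrays, and Pecam1 and Cdh5 were below it. The 9 osteoblast markers that were read, all above the filter by their mean over arrays, summed to 53630, 80287, 89292 and 92685, with 5 higher and 0 lower by 2-fold on all insulin arrays. At 0 h, 6 of them, Col1a1, Col1a2 and Sparc among them, were above the filter value, while Sp7, Alpl and Pth1r were below it (60.8, 61.5 and 36.9). The part of these differences in the results for the BMP genes was not tested. Fewer cells of a type and less RNA per cell cannot be told apart in such samples.

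Against 0 h, 7 of the 10 genes were at least 2-fold higher on all 3 insulin arrays, beside 9.81% of all genes, and none was 2-fold lower, beside 3.8%. The 10 genes were chosen with earlier results of these data known, so the contrast with these shares is a description and no test. The 7 were Id1, Id2, Id3, Bambi, Smad6, Bmp2 and Bmp4, each read by its brightest probe set. Id4 passed 2-fold at 12 h only, Smad7 stayed just under it at all times, and Grem1 was close to its 0 h level. The median log2 difference over the 10 genes was 2.05, 2.15 and 2.11 at 6, 12 and 24 h, while over all genes it was 0.01, 0.03 and 0.00. The 3 differences share the 0 h array. When any insulin array was made the reference, 0 of the 10 genes were 2-fold away from it in 1 direction on all 3 other arrays. That could not come out otherwise, as none of these genes was even 1.5-fold apart between insulin arrays. The filter passed 9 of the 10 genes and 13 of the 15 probe sets, with Bmp2 left below it. Of the 9 genes that passed, 6 were at least 2-fold higher on all insulin arrays, which is the count made on the same footing as the 9.81% of all genes. Bambi passed only through its values on the insulin arrays.

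**Figure D1:**
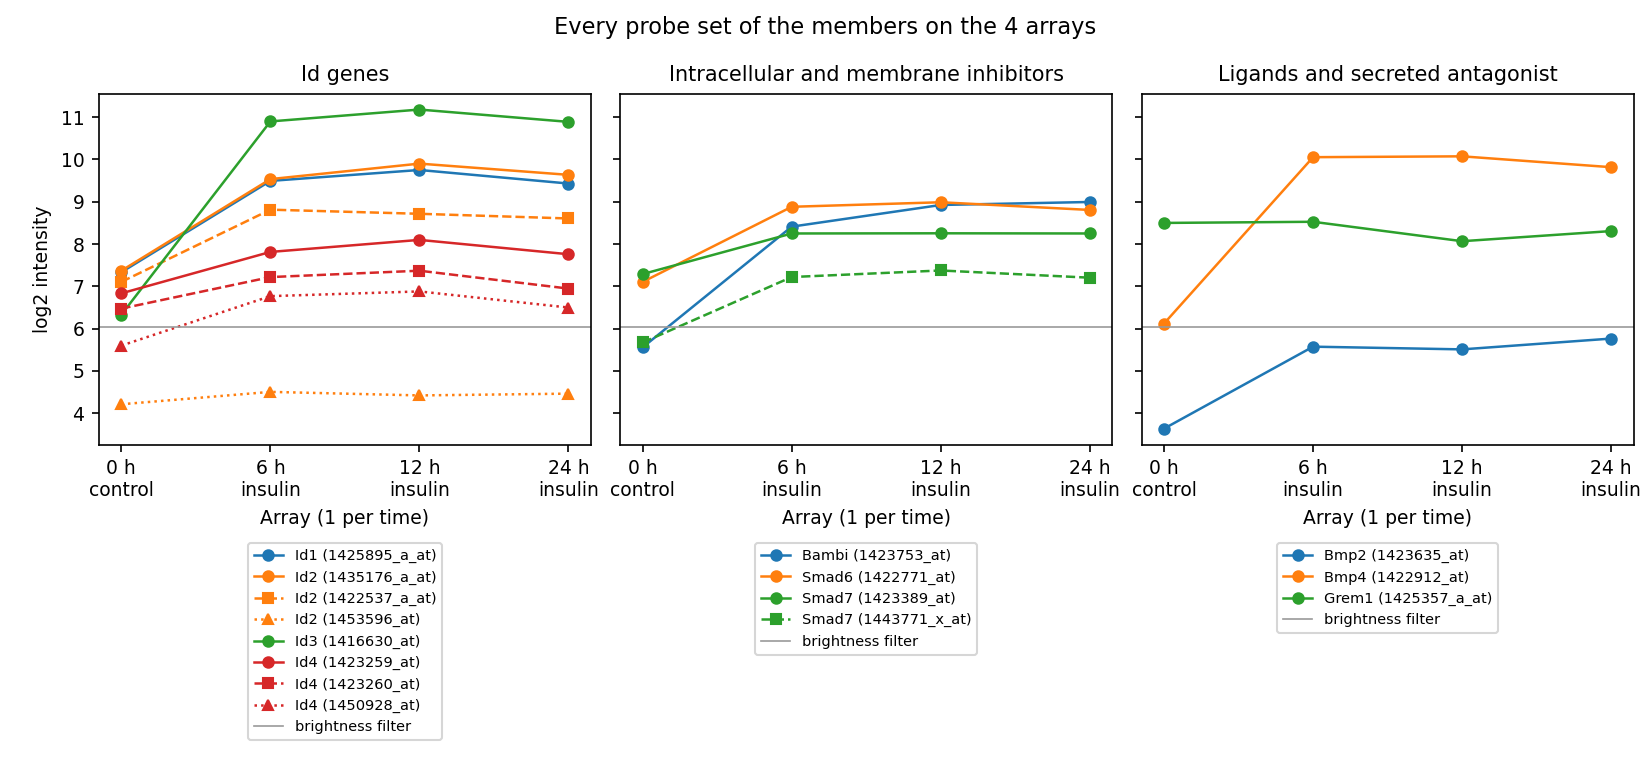
Log2 intensity (vertical axis) of each of the 15 probe sets on the 4 arrays (horizontal axis, 1 array per time), in panels for the Id genes, the inhibitors, and the ligands with Grem1. Lines join the values of a probe set, colour marks the gene, and the grey line is the brightness filter of 66.2. Most lines step up between 0 and 6 h and are nearly level afterwards, whereas Grem1 and the dimmest Id2 probe set show no such step.

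Among the targets, every Id probe set was higher on each insulin array than at 0 h, though not every one by 2-fold. Id3 was higher by the widest margin. The mouse reference holds promoter entries for Id2, Id3 and Id4, printed here because these family members lay on the same side of 0 h. The 250 bases before the RefSeq start (build GRCm38.p6, 5′ to 3′ on the gene's strand) lie at chr12:25096093-25096342 on the minus strand for Id2, at chr4:136143572-136143821 on the plus strand for Id3 and at chr13:48260866-48261115 on the plus strand for Id4. Capitals mark matches on either strand to GGCGCC, a GC-rich element bound by Smad1 and Smad5, to GTCT or CAGAC, forms of the Smad-binding element that overlap each other, and to the E-box CANNTG, the site of the E proteins that Id proteins hold back.
Id2: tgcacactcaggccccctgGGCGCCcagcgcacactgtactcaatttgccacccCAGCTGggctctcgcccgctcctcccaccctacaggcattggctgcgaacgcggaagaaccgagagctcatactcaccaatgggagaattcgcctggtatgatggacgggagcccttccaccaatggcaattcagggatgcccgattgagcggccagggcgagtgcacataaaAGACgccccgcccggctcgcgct
Id3: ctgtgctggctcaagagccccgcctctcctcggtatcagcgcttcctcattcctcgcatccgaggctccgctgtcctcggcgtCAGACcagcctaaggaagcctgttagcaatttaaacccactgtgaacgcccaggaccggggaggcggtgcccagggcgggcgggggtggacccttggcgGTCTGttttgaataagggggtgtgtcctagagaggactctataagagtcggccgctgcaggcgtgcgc
Id4: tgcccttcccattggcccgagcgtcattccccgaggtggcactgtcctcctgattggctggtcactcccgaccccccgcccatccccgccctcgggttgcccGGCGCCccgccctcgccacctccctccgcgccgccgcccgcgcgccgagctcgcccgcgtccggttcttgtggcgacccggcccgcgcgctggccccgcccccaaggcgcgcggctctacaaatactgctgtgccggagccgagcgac
The Id2 window held 1 GGCGCC, 1 GTCT and 1 CANNTG. The Id3 window held 2 CAGAC, each with a GTCT inside or overlapping it, and the Id4 window held 1 GGCGCC. Entries existed for 6 of the 10 genes, the others being Bmp4, Grem1 and Smad6. GGCGCC was in 3 of these 6 windows (Id2, Id4 and Grem1), beside 9.59% of the 32851 promoter entries of the table. GTCT was in 5, beside 82.9%, CAGAC in 2 (Id3 and Grem1), beside 42.2%, and CANNTG in 2 (Id2 and Bmp4, which held 3), beside 66.2%. The windows of Id3 and Bmp4, the genes farthest from 0 h, held no GGCGCC, and that of Grem1, which stayed near 0 h, did. These matches describe letters in a window and are not shown to be bound sites. G and C made up 62.8%, 75.6% and 72% of the windows of Id2, Id4 and Grem1. The share was 62.8%, 63.2% and 66.8% for Id3, Bmp4 and Smad6. The comparison with all promoter entries took no account of base composition.

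Id3 restrains helix-loop-helix factors and responds strongly to BMP in many cells. Its single probe set (1416630_at) had intensities of 80.4, 1909, 2319.55 and 1896 at 0, 6, 12 and 24 h. The 3 insulin arrays lay close to each other and far above the control. At 0 h only 54.3% of probe sets were dimmer, and the fold depends on that low value. The log2 differences from 0 h were 4.57, 4.85 and 4.56, and no more than 0.763%, 0.686% and 0.952% of all genes were as far above 0 h at these times. Id3 lies on chromosome 4, whose genes had median differences of 0.30, 0.37 and 0.32. With the medians of chromosomes subtracted the Id3 differences were 4.26, 4.48 and 4.24.

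Id1, the family member most used as a readout of BMP signalling, was read by 1425895_a_at with 161, 720.4, 861 and 689.8. Every insulin array was more than 4-fold above 0 h, with log2 differences of 2.16, 2.42 and 2.10. Between 3.79% and 4.66% of genes were as far above 0 h at the 3 times.

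Id2, which is also a target of other pathways, was read by 3 probe sets that differed in size. The brightest (1435176_a_at) had 165, 742, 956 and 795, and the next (1422537_a_at) had 138, 449, 420.1 and 389. Both were higher on every insulin array, 4.49, 5.79 and 4.81-fold for the brightest and 3.27, 3.05 and 2.83-fold for the next. The dimmest (1453596_at) had 18.5, 22.7, 21.4 and 22.0. It was below the filter on all 4 arrays and at most 1.23-fold above 0 h, and it is the only Id2 probe set of the 3 without a suffix. Read by that probe set, Id2 was not 2-fold from 0 h.

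Id4 had 3 probe sets built on the same sequence entry, so they are not independent readings. The brightest (1423259_at) had 114, 225, 274 and 216, or 1.97, 2.40 and 1.90-fold the 0 h value. The others had 88.8, 149, 165 and 123 (1423260_at) and 48.4, 109, 118 and 90.3 (1450928_at). The dimmest of them was below the filter value at 0 h. All 3 probe sets were higher on the insulin arrays and brightest at 12 h. Their folds straddled 2-fold, from 1.39 to 2.43, and with a loess curve removed the brightest passed 2-fold at 6 and 24 h as well (log2 1.06 and 1.01). By its brightest probe set, between 8.88% and 12.1% of all genes were as far above 0 h as Id4.

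Of the inhibitors, Bambi, Smad6 and Smad7 were higher on every insulin array, and whether Smad7 passed 2-fold depended on the probe set. BAMBI dampens TGF-beta and BMP receptors. Its probe set (1423753_at) had 47.1, 340.2, 485 and 509.8 at 0, 6, 12 and 24 h, with log2 differences from 0 h of 2.85, 3.37 and 3.44. It was dim at 0 h, and the fold depends on that low value. About 2.47%, 2.04% and 2.02% of genes were as far above 0 h. Unlike the Id genes, Bambi was brightest at 24 h.

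Smad6, the inhibitory Smad most specific to BMP receptors, had 138, 471, 508 and 447 (1422771_at). The insulin arrays differed from each other by at most 1.13-fold and from 0 h by 3.43, 3.69 and 3.25-fold. Smad6 lies on chromosome 9, with median differences of 0.20, 0.24 and 0.21. With these subtracted its log2 differences from 0 h, 1.78, 1.88 and 1.70 before, were 1.58, 1.64 and 1.49. Smad7, which inhibits both TGF-beta and BMP receptors, had 156, 304, 305 and 304 by its brighter probe set (1423389_at), a fold of 1.95 at each time. The second probe set (1443771_x_at), of a kind that can cross-hybridise, had 50.9, 149, 166 and 147, or 2.92, 3.26 and 2.89-fold. Both lay higher on all insulin arrays, while only the second passed 2-fold, and its 0 h value was below the filter value. The mean of both gave log2 differences of 1.254, 1.33 and 1.246, and with a loess curve removed the brighter gave 1.03, 1.02 and 1.03, so the 2-fold call of Smad7 depended on the processing. The brighter probe set held the same value on the 6 and 24 h arrays, and 2.5% of all probe sets repeated a value on 2 or more arrays.

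The ligands differed in brightness and both were higher on the insulin arrays. Bmp4, a ligand that drives osteoblast differentiation, had 69.5, 1063, 1078 and 902 (1422912_at). Its 0 h value was near the filter, the insulin values were 15.3, 15.5 and 13.0-fold above it, and 1.24%, 1.36% and 1.70% of genes were as far above 0 h. Bmp4 lies on chromosome 14, with median differences of 0.18, 0.21 and 0.19. Bmp2, the closely related ligand, had 12.4, 47.6, 45.5 and 54.3 (1423635_at) and was below the filter on all 4 arrays. Only 5.29% of probe sets were dimmer at 0 h, but 43.1%, 42.4% and 46.1% were dimmer on the insulin arrays. Its folds of 3.83, 3.67 and 4.38 thus rest on values near the floor of the array. With a pseudocount of 16 the log2 differences, 1.94, 1.87 and 2.13 without it, were 1.16, 1.11 and 1.31.

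Grem1 encodes gremlin, which binds BMP2 and BMP4 and keeps them from their receptors. Its probe set (1425357_a_at) had 362, 369, 268 and 316 at 0, 6, 12 and 24 h. The control lay inside the range of the insulin arrays. The log2 differences from 0 h were 0.03, -0.43 and -0.19, and the first turned to -0.02 under quantile normalization. In each direction taken, 48.2%, 18.7% and 34.3% of genes were as far from 0 h, so Grem1 was well within the bulk of genes.

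**Figure D2:**
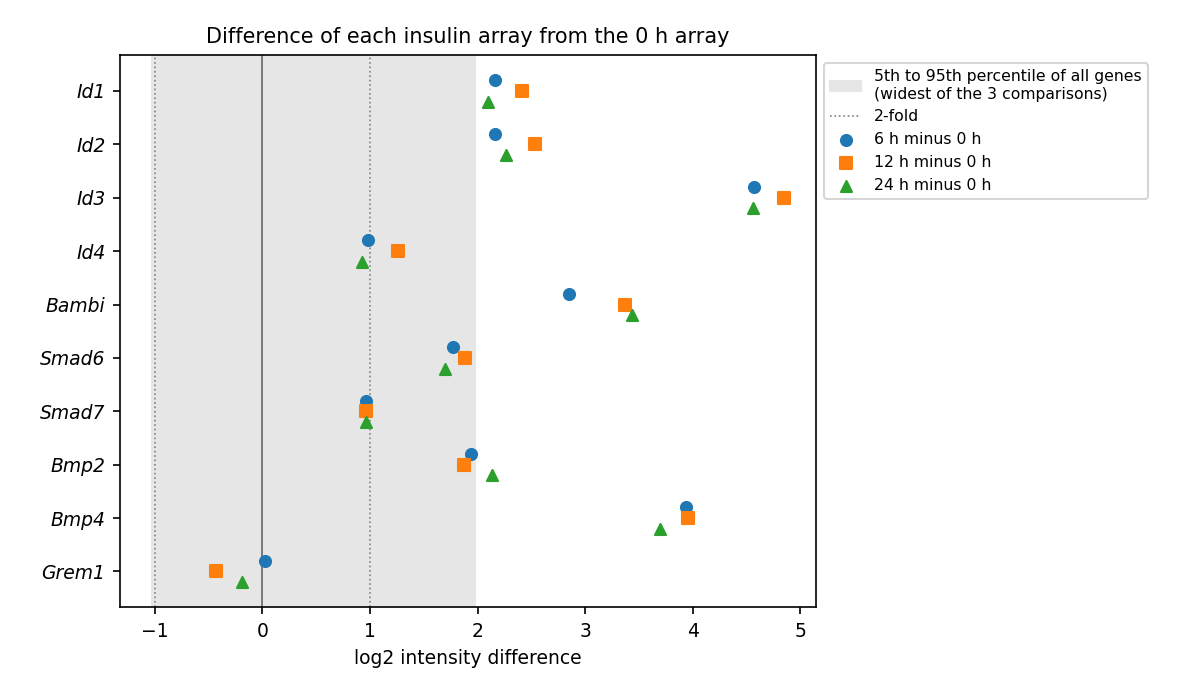
Log2 intensity of each insulin array minus the 0 h array (horizontal axis) for the 10 genes by their brightest probe sets (vertical axis), with 1 symbol per time. The grey band spans the 5th to the 95th percentile of all genes at its widest over the 3 times, and dotted lines mark 2-fold. Id1, Id2, Id3, Bambi and Bmp4 lie right of the band at all 3 times, Smad6, Id4, Smad7 and Grem1 lie inside it, and Bmp2 lies at its right edge.

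The insulin arrays were next compared with each other, which leaves the 0 h array out. None of the 10 genes was 1.5-fold apart between any of these arrays. From 6 to 12 h, 1.14% of all genes were higher by that size and 0.334% lower. From 6 to 24 h the shares were 1.68% and 0.12%, and from 12 to 24 h 0.103% and 0.103%. The median size of a log2 difference over all genes was 0.10, 0.10 and 0.09 in these comparisons. Among the 10 genes the differences ran from -0.46 to 0.51 at 12 h against 6 h, from -0.24 to 0.58 at 24 h against 6 h and from -0.34 to 0.26 at 24 h against 12 h.

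The Id genes shared a small maximum at 12 h. By their brightest probe sets, 4 of 4 were higher at 12 h than at 6 h, by 0.26 (Id1), 0.37 (Id2), 0.28 (Id3) and 0.28 log2 (Id4). Over all genes 57.1% were higher at 12 h by any amount, and between 3.98% and 8.62% were higher by as much as these genes. From 12 to 24 h all 4 were lower, by -0.32, -0.27, -0.29 and -0.34 log2 in the same order. By any amount 58.4% of genes were lower, and by as much as these genes between 1.17% and 3.35%. The signs of both steps held under median centring, quantile normalization, loess removal, a pseudocount, subtraction of chromosome medians and the mean of all probe sets, and turned for Id2 when suffixed probe sets were left out. Over all 8 Id probe sets, 6 were higher at 12 h than at 6 h and 7 were lower at 24 h than at 12 h. The exceptions were the 2 dimmer Id2 probe sets in the first step and the dimmest in the second. No share over all probe sets was counted beside these, and the Id4 probe sets among the 8 are not independent readings. Both steps share the 12 h array, and with 1 array per time a property of that array and of the cells at 12 h cannot be told apart.

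Over the 10 genes, 7 were brightest at 12 h among the insulin arrays, beside 40.2% of all genes. The exceptions were Bambi and Bmp2 at 24 h, beside 27.4%, and Grem1 at 6 h, beside 32.4%. Among the 7, Smad7 and Bmp4 were only 0.004 and 0.02 log2 higher at 12 h than at 6 h. Bambi was 0.51 log2 higher at 12 h and 0.58 higher at 24 h than at 6 h, a fold of 1.498 in the latter case, and 1.70% of genes were as far up in each of these comparisons. Under median centring, quantile normalization and loess removal the 24 h difference was 0.587, 0.588 and 0.595, just past 1.5-fold. Grem1 was lower at 12 h than at 6 h by -0.46 log2, and 0.969% of genes were as far down. Bmp4 was lower at 24 h than at 12 h by -0.26 log2 and Bmp2 was higher by 0.26, a step that 3.74% and 3.83% of genes matched in their direction. Smad6 was at most 0.18 log2 apart between insulin arrays, and the brighter Smad7 probe set was nearly level.

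**Figure D3:**
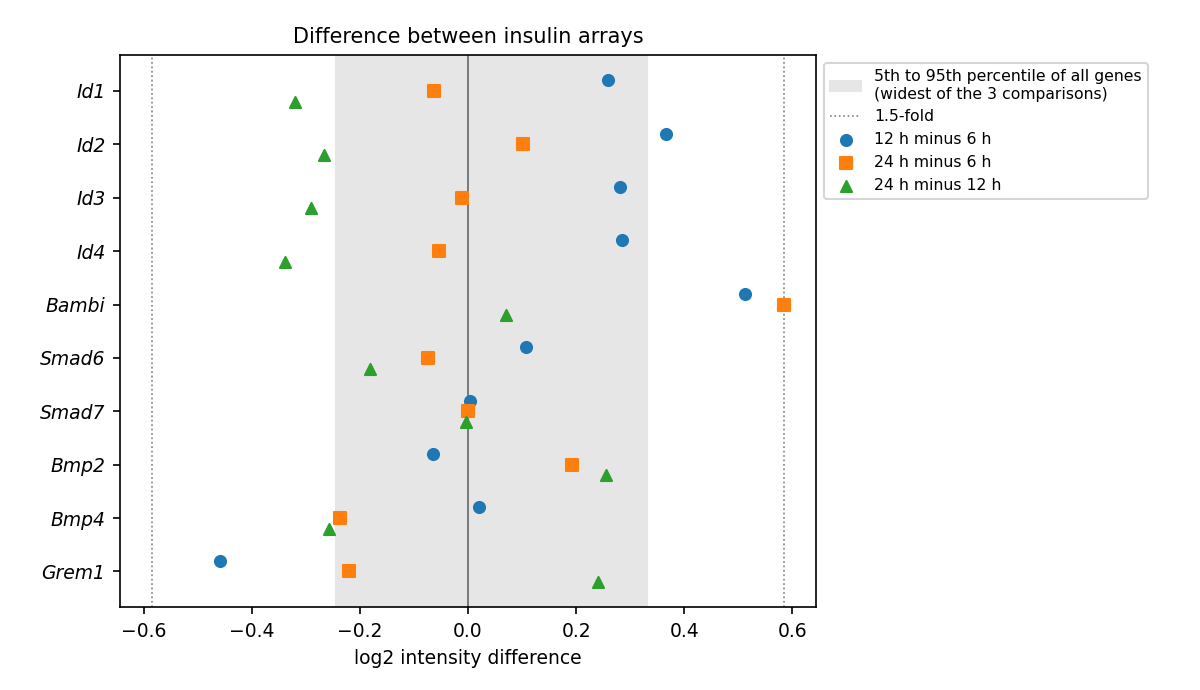
Log2 differences between insulin arrays (horizontal axis) for the 10 genes by their brightest probe sets (vertical axis), with 1 symbol per pair of arrays. The grey band spans the 5th to the 95th percentile of all genes at its widest over the comparisons, and dotted lines mark 1.5-fold. The 4 Id genes lie right of 0 at 12 h against 6 h and left of the band at 24 h against 12 h, while Bambi lies almost on the 1.5-fold line at 24 h against 6 h.

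The genes nearest in pattern to Id3 and Bambi were found over the 4 arrays by the root mean square gap between log2 values, each gene centred on its own mean, among 11240 other named genes above the filter. Nearest to Id3 were Rspo3, a secreted Wnt potentiator (gap 0.03 log2), the transmembrane protein gene Tmeff2 (0.03) and Cemip, a gene of hyaluronan breakdown (0.04). Rspo3 had 74.3, 1724, 2044 and 1731, and its maximum at 12 h, like that of Id3, follows from how it was picked. Nearest to Bambi were Tyrobp, an adaptor of macrophages and other myeloid cells (0.05), Clec11a, a growth factor gene active in bone (0.06), and the angiotensin receptor gene Agtr1a (0.08). Tyrobp had 62.7, 461, 618 and 713 and is 1 of the macrophage markers whose summed level was given above. With 4 values per gene, and the 0 h array far from the rest, such a likeness is easily met.

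Genes of the wider pathway were then read from a list of 78 symbols, of which 73 had a probe set and 59 were above the filter. At least 2-fold higher on all 3 insulin arrays were 17 of 59, beside 9.81% of all genes, and 1 was lower, beside 3.8%. This list too was chosen with earlier results of these data known. The list median was 0.52, 0.61 and 0.60 log2 at 6, 12 and 24 h. Of the 17, 9 (Bmp5, Bmp6, Bmp8a, Bmpr1b, Tll1, Msx2, Dlx5, Sp7 and Alpl) were below the filter value at 0 h and passed the filter only through the insulin arrays, as did 463 of the 1144 such genes among all genes, so the count is a description.

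Of 6 further ligand genes above the filter, 4 were 2-fold higher on all insulin arrays and 0 lower, beside 9.81% and 3.8% of all genes. Of these 4, Bmp5, Bmp6 and Bmp8a passed the filter only through the insulin arrays, so this count too is a description. Gdf10, which encodes BMP3B, had 87.3, 1093, 1593 and 1854 and was brighter on each later array. Bmp6, an osteogenic ligand, had 20.4, 233, 243 and 186. Of 12 receptor and co-receptor genes 3 were higher and 1 lower, beside the same shares of all genes. Among the higher genes, Bmpr1b passed the filter only through the insulin arrays. Eng, the co-receptor endoglin, had 260.3, 1044, 1166 and 1041, and Bmpr1b, a type I receptor, 37.6, 142, 123 and 113. Tgfbr3, the co-receptor betaglycan, was the gene at least 2-fold lower, with 4682, 1522, 1653 and 1642. The brightest probe sets of Bmpr1a and Bmpr2 did not reach 2-fold at any time, and another probe set of each pointed the other way.

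Of 13 genes of signal transduction above the filter 1 was higher and 0 lower, beside 9.81% and 3.8% of all genes. These counts lay near the shares of all genes. The higher gene was Ski, a corepressor of Smad complexes, with 547, 1468, 1705 and 1572. Smad1, Smad4 and Smad5, the carriers of the BMP signal, stayed well under 2-fold from 0 h by their brightest probe sets (Smad1 with 946, 757, 809.9 and 829), and for each of these genes at least 1 other probe set pointed the other way. Of 13 antagonists and matrix regulators 5 were higher and 0 lower, beside the same shares. Among the 5, Tll1 passed the filter only through the insulin arrays. Tll1, a protease that cleaves the BMP antagonist chordin, had 17.7, 655, 680.3 and 569, and Chrdl1, a chordin-like antagonist, 85.8, 345, 621 and 764. Nog, the antagonist noggin, was below the filter with 35.7, 30.5, 40.5 and 39.7.

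Of 12 further target genes above the filter, 4 were higher and 0 lower on all insulin arrays, beside 9.81% and 3.8% of all genes. All 4, Msx2, Dlx5, Sp7 and Alpl, passed the filter only through the insulin arrays, so this count is a description. Msx2, a homeobox gene induced by BMP, had 48.5, 828, 773 and 672. The alkaline phosphatase gene Alpl read 61.5, 523, 919.7 and 1139.5, and like Gdf10 and Chrdl1 it was brighter on each later array, whereas Msx2 was brightest at 6 h. The E proteins, which pair with and are sequestered by Id proteins, were slightly lower. Their median log2 difference from 0 h was -0.35, -0.41 and -0.33 at 6, 12 and 24 h. Over all genes the median size of a difference was 0.35, 0.38 and 0.37, so such differences were common. Tcf3 had 541, 423, 417 and 408, Tcf4 had 3272, 2209.7, 2112 and 2611, and Tcf12 had 2515, 2150.2, 1891 and 2086. None of these 3 genes reached 2-fold, and 1 other probe set of Tcf12 pointed the other way.

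**Figure D4:**
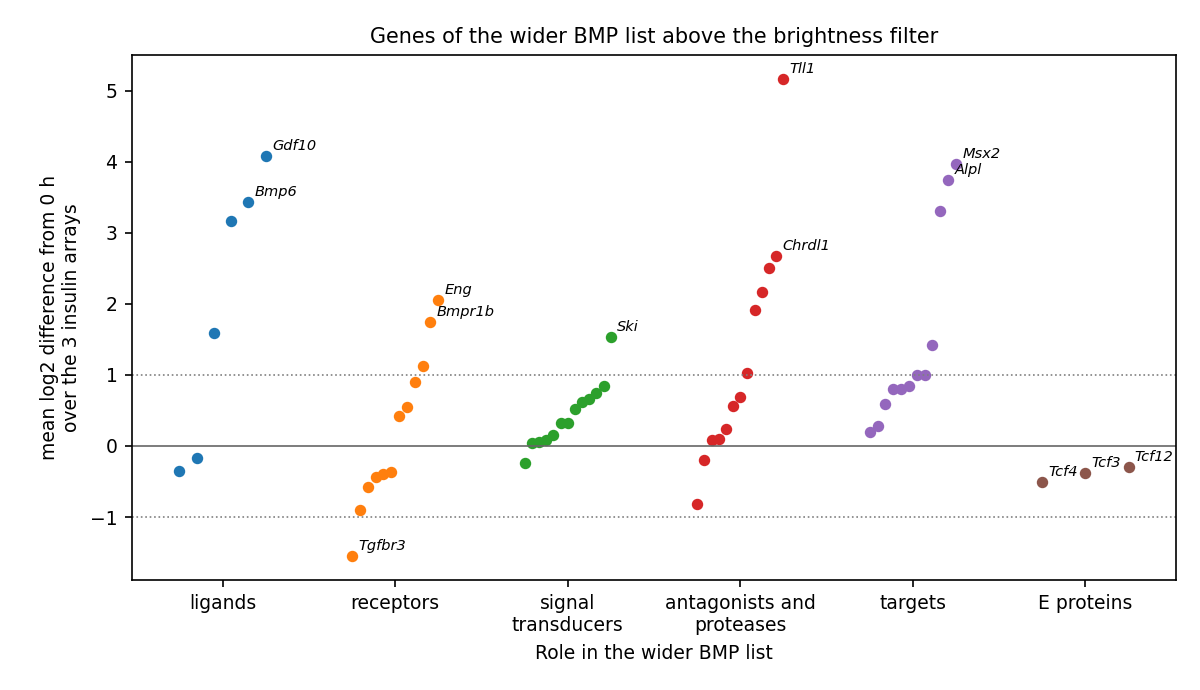
Mean log2 difference from 0 h over the 3 insulin arrays (vertical axis) for the genes of the wider list above the filter, grouped by role (horizontal axis) and sorted within a role. Each point is a gene by its brightest probe set, dotted lines mark 2-fold, and genes named by rule are labelled. Tll1 lies farthest above the 2-fold line, and Tgfbr3 lies below the lower line.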

How the data were processed

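RNA of mouse osteoblasts was measured on 4 Affymetrix arrays, 1 per group. The authors deposited 1 linear intensity per probe set and array, and the submitters' processing notes name RMA, which corrects background, normalizes arrays to each other and summarises probes. Neither its version nor a genome build is given in the sources used here. RMA compresses differences of dim probe sets. Values ran from 7.34 to 31292, with array medians between 64.97 and 65.75, and log2 was taken before subtraction. The number of arrays limits the precision.

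Of 45037 probe sets that are not controls, 34945 named 1 symbol in a platform annotation that can be old. Each of 18193 genes was read by the probe set whose mean log2 intensity was highest. The 11661 genes whose mean reached the median of 66.2 served as background. Differences of at least 2-fold from 0 h, or 1.5-fold between insulin arrays, were counted. Pathway genes were named by rule, taking per role up to 2 genes farthest above and 2 farthest below 0 h that passed 2-fold on all insulin arrays, with the E proteins, and up to 3 genes nearest in pattern to Id3 and to Bambi. Others named in passing were chosen after their values were seen. The members and lists were chosen with earlier results of these data known. Chromosomes and promoters came from RefSeq tables of GRCm38.p6, in which 11646 of the background genes had a chromosome. Counting was tested on simulated data. Alternatives were other thresholds, scalings, filters, probe set rules, a pseudocount of 16, chromosome medians removed and other reference arrays. The software was Python 3.11.15 (numpy 2.4.6, statsmodels 0.14.6, pandas 2.3.3, matplotlib 3.10.9).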

Additional observations from a re-analysis of the deposited data

Results flagged for a closer look

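Grem1 was the only 1 of the 15 probe sets whose differences from 0 h pointed both ways on the insulin arrays, at 0.0272 log2 at 6 h and -0.43 at 12 h, and the difference between these times was not tested, as each has 1 array.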

How the results depend on the processing

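No paired analysis was possible because each group holds 1 array. Without replicates no call has an error. Signal near background limits Bmp2, the dimmest Id2 probe set and the 0 h values of Bambi, Bmp4, the dimmest Id4 probe set and the dimmer Smad7 probe set. The 0 h value of Id3 (80.4) was not far above the filter value. The count of 7 genes 2-fold higher on all insulin arrays stayed within 1.5 times under every scaling, threshold, filter and probe set rule tried, and was 0, 0 and 0 with the 6, 12 or 24 h array as the reference. Those 0 counts follow from the small differences between insulin arrays and are no separate check. Genes 1.5-fold apart between insulin arrays numbered 4 at the looser threshold and 1, 1 and 1 under median centring, quantile normalization and loess removal. Of the wider list, 26 were higher and 3 lower at 1.5-fold, and 0 were lower at 3-fold. The count lower was 2, 2 and 2 without the filter, with chromosome medians removed and with probe sets averaged per gene. Grem1 at 6 h was -0.0214 log2 under quantile normalization. With suffixed probe sets left out, Id2 was -0.0838 at 12 h against 6 h and 0.0417 at 24 h against 12 h, which is its dimmest probe set, and Id1 and Grem1 gave no value. The cause of the other shifts was not tested.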
